A study of Mus musculus with 2 samples.

Results

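Polycomb group genes encode the repressors that keep developmental genes silent once a cell type is set, and the values below follow 10 of them in blood stem and progenitor cells of adult bone marrow and fetal liver. The 10 genes are the catalytic and core subunits Ezh1, Ezh2, Eed and Suz12 of Polycomb repressive complex PRC2, its partners Jarid2 and Mtf2, and Bmi1, Cbx2, Cbx7 and Cbx8 of complex PRC1. They were chosen by name, and all 14 array probes whose accession belongs to one of them were used, out of 20655 genes with a named probe. Both samples were wild-type mouse LSK cells that had not been transplanted. LSK cells lack lineage markers and carry Sca-1 and c-Kit, the gate that holds stem cells and multipotent progenitors. One sample came from bone marrow of C57BL/6 mice at 8 weeks of age, the other from fetal liver at E14.5 with no strain in the labels used here. Each was sorted by flow cytometry and its RNA was read on 1 single-colour Agilent array, so 1 array stands for each group and no difference below has a replicate check. Age and organ differ together and cannot be told apart.

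PRC2 places methyl groups on histone H3, and PRC1 binds that mark through a CBX protein and attaches ubiquitin to histone H2A. Ezh1 and Ezh2 are alternative catalytic subunits of PRC2, with Ezh2 typically abundant in dividing cells and Ezh1 kept in resting and differentiated ones. In mouse blood, Bmi1 is known for sustaining adult stem cells, and Ezh2 for its need in the fetal liver. The comparison asks how far the make-up of these complexes, at the RNA level, differs between an adult and a fetal site of blood formation.

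The promoter windows of the 3 PRC2 genes on which the results turn are given here because Ezh1 and Ezh2, alternatives in the same complex, had unequal differences and Mtf2 had the largest of the set. The sequences are those of RefSeq on build GRCm38.p6, 300 bases each, 250 before the annotated start and 50 after it, read along the gene's strand. The windows lie at chr11:101226414-101226713 for Ezh1 (minus strand), chr6:47594981-47595280 for Ezh2 (minus strand) and chr5:108065424-108065723 for Mtf2 (plus strand, the first of its 2 listed starts). Capitals mark matches to CCAAT, or its complement ATTGG, and to a pair of common forms of the site of E2F cell cycle factors, TTTCCCGC and TTTGGCGC, searched on both strands.
Ezh1: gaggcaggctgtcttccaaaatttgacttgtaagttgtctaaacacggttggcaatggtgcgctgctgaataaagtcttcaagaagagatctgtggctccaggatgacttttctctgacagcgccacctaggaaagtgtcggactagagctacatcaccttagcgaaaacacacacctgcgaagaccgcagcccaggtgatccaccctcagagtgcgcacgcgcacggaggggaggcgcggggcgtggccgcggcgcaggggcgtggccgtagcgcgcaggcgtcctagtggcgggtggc
Ezh2: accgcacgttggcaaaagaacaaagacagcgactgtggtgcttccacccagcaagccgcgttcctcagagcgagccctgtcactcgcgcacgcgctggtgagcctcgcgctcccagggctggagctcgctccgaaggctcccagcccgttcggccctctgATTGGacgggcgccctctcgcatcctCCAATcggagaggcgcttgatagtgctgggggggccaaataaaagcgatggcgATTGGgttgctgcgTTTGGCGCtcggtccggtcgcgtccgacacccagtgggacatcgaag
Mtf2: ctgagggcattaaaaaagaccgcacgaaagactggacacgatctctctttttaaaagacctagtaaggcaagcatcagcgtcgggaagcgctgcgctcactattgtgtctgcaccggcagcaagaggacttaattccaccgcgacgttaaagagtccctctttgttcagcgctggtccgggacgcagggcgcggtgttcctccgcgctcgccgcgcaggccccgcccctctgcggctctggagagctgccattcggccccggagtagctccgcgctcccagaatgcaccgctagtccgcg
The Ezh2 window held 3 CCAAT letters and 1 E2F form, TTTGGCGC, just after the start, while the Ezh1 window and this Mtf2 window held neither motif. The window of the other Mtf2 start, chr5:108077915-108078214, held 3 CCAAT matches and 2 CG pairs. No matches of the 2 motifs overlapped in these windows. Windows were listed for 9 of the 10 genes, 11 windows in all, and the E2F forms were found in 2 of them, those of Ezh2 and Suz12. Of all 32851 listed windows, 1.56% held an E2F form and 37.4% held CCAAT. A match says only that these letters are present. The Ezh1 window held 23 CG pairs, the Ezh2 window 31 and this Mtf2 window 30, against a median of 7 over all windows, of which 26.5% held at least 20.

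Signals are the scanner software's background-subtracted spot intensities. Differences are log2 values, bone marrow minus fetal liver, taken after each array was divided by its own 75th percentile, so a positive one is higher in bone marrow. The ± is the software's own spot error carried into the difference and covers measurement noise only. Levels of different probes are set against each other only as parts of the summed signals of gene lists. These sums are taken before scaling, and the 75th percentile was 178.9 in bone marrow, against 134.0 in fetal liver. Of the 10 genes, 9 were well above background on both arrays. Of these 9, 1 (Ezh1) passed 2-fold toward bone marrow, as did 8.14% of the 13385 measured genes, and 1 (Mtf2) passed 2-fold toward fetal liver, as did 6.76%. The other 7 lay between -0.62 and -0.15. The median of the 9 was -0.26, beside -0.11 for all measured genes (SD across genes 0.89). Since each sample is a bulk of sorted cells, fewer cells that express a gene and less RNA per cell cannot be told apart.

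**Figure D1:**
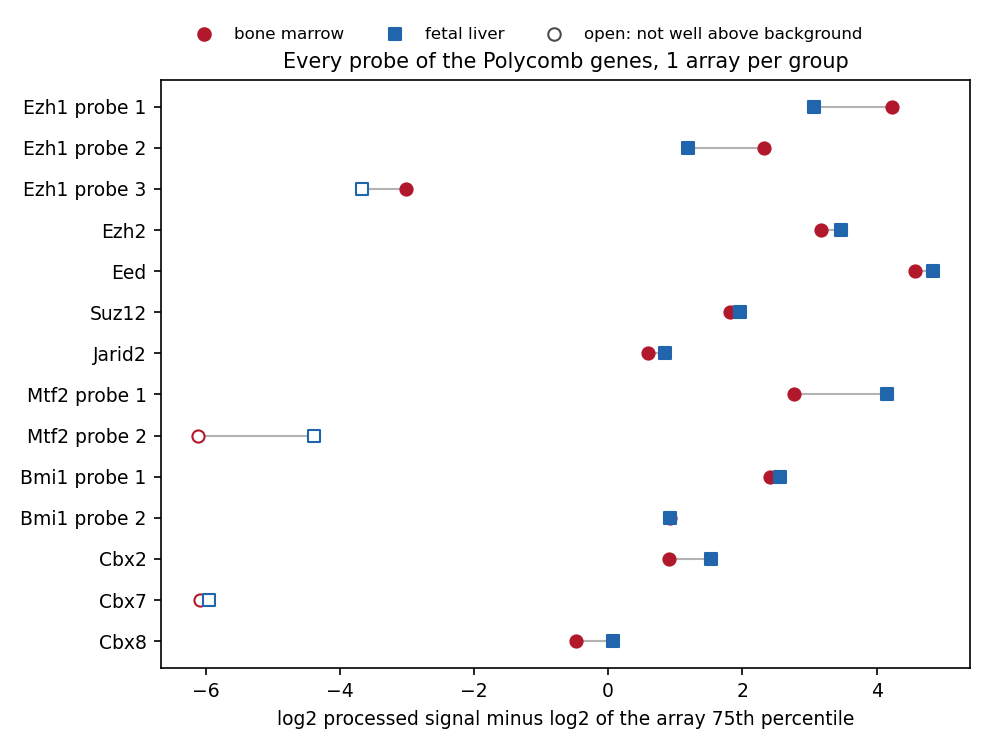
Scaled log2 processed signal of all 14 probes of the 10 genes, red circles for the bone marrow array and blue squares for the fetal liver array, 1 array per group, with open symbols where a spot was not well above background. Ezh1 lies to the right in bone marrow on each of its 3 probes, the bright Mtf2 probe lies to the right in fetal liver at 4.15 against 2.77 in bone marrow, the symbols of Bmi1 probe 2 coincide, and Cbx7 is at background on both arrays.

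Ezh1, one of the methyltransferase subunits of PRC2, was the 1 gene of the set past 2-fold toward bone marrow. Its brightest probe had a processed signal of 3344 in bone marrow, against 1118 in fetal liver. After scaling, this was a 2.24-fold higher signal in bone marrow (1.16 ± 0.20), 5.70 times the technical error. Another probe gave 896 in bone marrow, against 306 in fetal liver, a difference of 1.13 ± 0.20. The remaining, dim probe had 22.2 in bone marrow, against 10.6 in fetal liver, where it was not well above background, which gives at least 1.57-fold. All 3 Ezh1 probes thus ran the same way, and averaging them gives 0.98, just under 2-fold. Among 13373 genes with a difference, 6.45% were further to the bone marrow side than Ezh1.

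Ezh2, the other methyltransferase subunit, gave a signal of 1621 in bone marrow, against 1484 in fetal liver. Its difference was -0.29 ± 0.20, and 35.8% of genes were further to the fetal liver side. Eed, the subunit that reads the methyl mark and stimulates the enzyme, had 4271 in bone marrow, against 3842 in fetal liver (-0.26 ± 0.20). Suz12, the scaffold of PRC2, had 628 in bone marrow, against 523 in fetal liver (-0.15 ± 0.20). These 3 core genes were therefore within 1.5 technical errors of 0 after scaling. The histone-binding subunits Rbbp4 and Rbbp7, which PRC2 shares with other complexes, were at -0.13 and -0.18.

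Because both genes are read on the same pair of arrays, the gap between the Ezh1 and Ezh2 differences does not depend on how the arrays are scaled. It was 1.45 ± 0.29, so the Ezh1-to-Ezh2 signal ratio was 2.74-fold higher in bone marrow than in fetal liver. The gap was 1.42 with the second Ezh1 probe and 1.43 after normexp, a model-based background correction. The dim Ezh1 probe, which has only a bound, was left out of it. The mean over all 3 Ezh1 probes, 0.98, with Ezh2 at -0.29, gives a smaller gap. Against Eed and Suz12 the gap of Ezh1 was 1.43 and 1.32. Such a gap shows that the 2 genes differed by unequal amounts, and no more. It was computed for 10 pairs of related or interacting genes, chosen after their values were seen, and has no test.

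**Figure D2:**
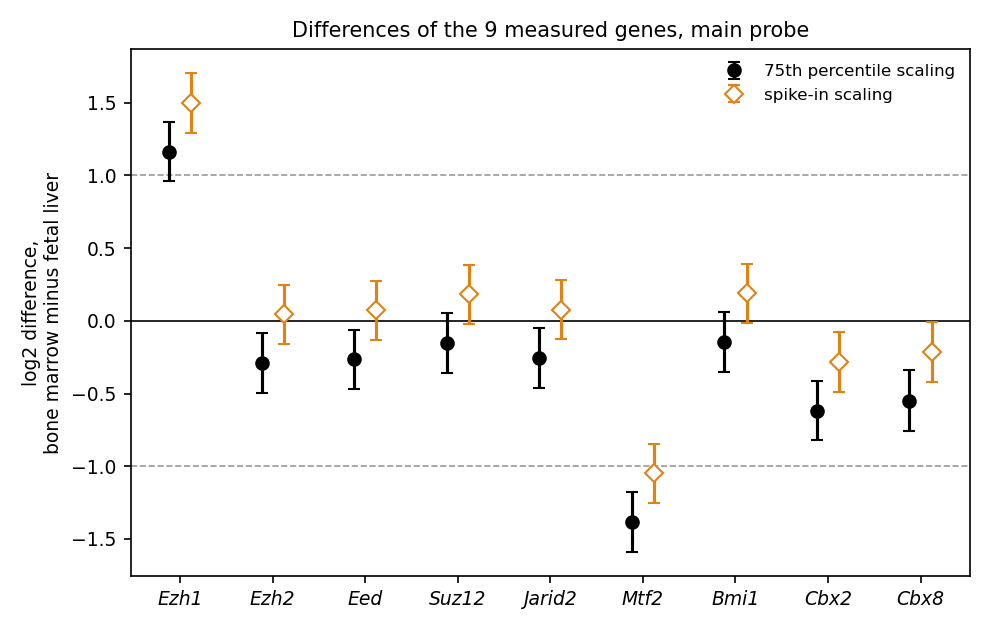
Log2 difference, bone marrow minus fetal liver, of the 9 measured genes by their main probe, with bars for the technical error of 1 spot per array. Filled circles are scaled to the 75th percentile and open diamonds to the spike-in controls, dashed lines mark 2-fold, and Ezh1 and Mtf2 lie outside these lines under both scalings.

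Mtf2, a Polycomb-like protein that brings PRC2 to unmethylated CG-rich DNA, had the largest difference of the set. Its main probe gave a signal of 1220 in bone marrow, against 2385 in fetal liver. After scaling it was 2.61-fold higher in fetal liver (-1.38 ± 0.20), and 3.60% of genes were further to that side. Its other probe, for another transcript, had 2.58 in bone marrow, against 6.42 in fetal liver, and was at background on both. The difference of Mtf2 therefore rests on 1 probe.

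Jarid2, a DNA-binding partner found in a separate form of PRC2, had signals of 269 in bone marrow, against 240 in fetal liver (-0.26 ± 0.21). The difference of Jarid2 was 1.13 ± 0.29 above that of Mtf2. Phf1 and Phf19 are the other Polycomb-like proteins, relatives of Mtf2. Phf1 had 225 in bone marrow, against 78.7 in fetal liver, and was 2.14-fold higher in bone marrow, with its other probe at background on both arrays. Phf19 had 372 in bone marrow, against 351 in fetal liver (-0.33 ± 0.20). The gap between Phf1 and Mtf2 was 2.48 ± 0.29, a 5.60-fold higher Phf1-to-Mtf2 ratio in bone marrow. Under normexp that gap was 1.79, with Phf1 at 0.62 and thus under 2-fold. The gap between Phf19 and Mtf2 was 1.05 ± 0.29, and 0.99 under normexp.

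Bmi1, the PRC1 subunit that supports the ubiquitin ligase, gave a signal of 949 in bone marrow, against 787 in fetal liver by its brighter probe (-0.15 ± 0.20). Its other probe had 340 in bone marrow, against 255 in fetal liver, a difference of 0.001 ± 0.20. Neither Bmi1 probe differed by more than its technical error. Of the 2 ligase subunits that pair with Bmi1 or its relatives, Ring1 was at 0.64 ± 0.21 and Rnf2 at -0.59 ± 0.20, a gap of 1.24 ± 0.29. Under normexp that gap was 0.84. Pcgf2, the closest relative of Bmi1, was at -0.089 ± 0.25 from a dim probe, with signals of 41.4 in bone marrow, against 33.0 in fetal liver.

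The CBX proteins are the PRC1 subunits that dock on methylated histone H3. Cbx2 gave a signal of 337 in bone marrow, against 387 in fetal liver, a difference of -0.62 ± 0.20 and 3.02 technical errors from 0. Cbx8 had 129 in bone marrow, against 141 in fetal liver, a difference of -0.55 ± 0.21. Both leaned to fetal liver without reaching 2-fold under any setting, and 16.1% of genes were further to that side than Cbx2 and 19.2% than Cbx8. Cbx7 had signals of 2.65 in bone marrow, against 2.18 in fetal liver. The negative control spots had medians of 2.70 in bone marrow, against 2.27 in fetal liver. It has 1 probe, so the array gives no level for Cbx7 and shows only that this probe was not well above background.

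Cbx6, another CBX gene, was at -0.17 ± 0.20 by its brightest probe, and its 3 probes spanned -0.17 to 0.38.

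**Figure D3:**
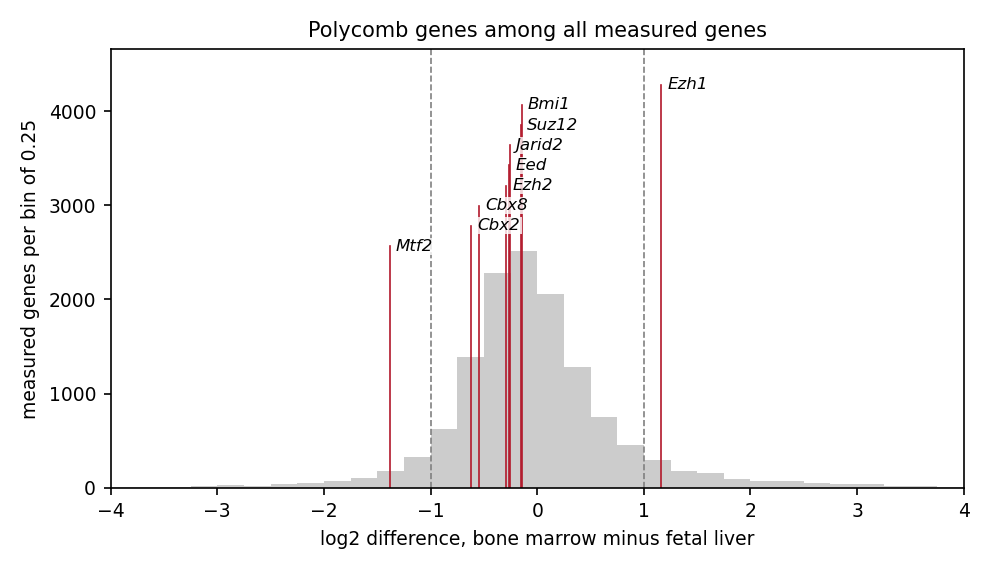
Number of measured genes per bin of 0.25 in the log2 difference, bone marrow minus fetal liver, drawn from -4 to 4, with genes beyond that range not shown. Red lines mark the 9 measured Polycomb genes, dashed lines mark 2-fold, and 7 of the 9 sit in the body of the distribution between -0.62 and -0.15.

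The arrays can also be scaled by the 8 spike-in controls above background on both, which raises each difference between measured signals by 0.34. All measured genes then had a median of 0.23, and fetal liver held 22.5% of the 2-fold differences, against 45.4% under percentile scaling. Ezh1 was then at 1.50 and Mtf2 at -1.05, and each stayed past 2-fold. Ezh2, Eed, Suz12, Jarid2 and Bmi1 turned positive, at 0.045, 0.071, 0.18, 0.078 and 0.19. Cbx2 and Cbx8 remained negative at -0.28 and -0.21. The direction of the 5 genes that turned is therefore not settled by these data.

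Polycomb complexes hold many more subunits, and 59 other genes were listed under 8 headings by complex. Of these 59 genes 55 were measured, and 1 passed 2-fold toward bone marrow and 3 toward fetal liver. These are 1.82% toward bone marrow and 5.45% toward fetal liver, next to 8.14% and 6.76% of all measured genes. Their median was -0.11, the same as for all measured genes. These counts depend on the scaling. Over all 64 measured Polycomb genes, 2 passed 2-fold toward bone marrow and 4 toward fetal liver under percentile scaling. Under spike-in scaling these were 7 and 2, next to 1756 and 510 of the 13385 measured genes.

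The 1 gene higher in bone marrow was Phf1, described above. Sfmbt2, an MBT-domain protein encoded by an imprinted gene in mouse, was 2.94-fold higher in fetal liver (-1.55 ± 0.22), with signals of 45.2 in bone marrow, against 99.5 in fetal liver. A second Sfmbt2 probe gave a bound of at least 1.71-fold, and the remaining one was at background on both arrays. Pcgf3, a Bmi1 relative of a variant PRC1, was higher in fetal liver by at least 2.06-fold, from signals of 7.58 in bone marrow, not well above background, and 19.0 in fetal liver. Asxl3, a partner of the deubiquitinase Bap1, was higher in fetal liver by at least 2.05-fold, from 2.52 in bone marrow, not well above background, and 19.0 in fetal liver. The other Asxl3 probe was at background on both arrays. Under spike-in scaling the bounds of Pcgf3 and Asxl3 were -0.70 each, short of 2-fold.

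**Figure D4:**
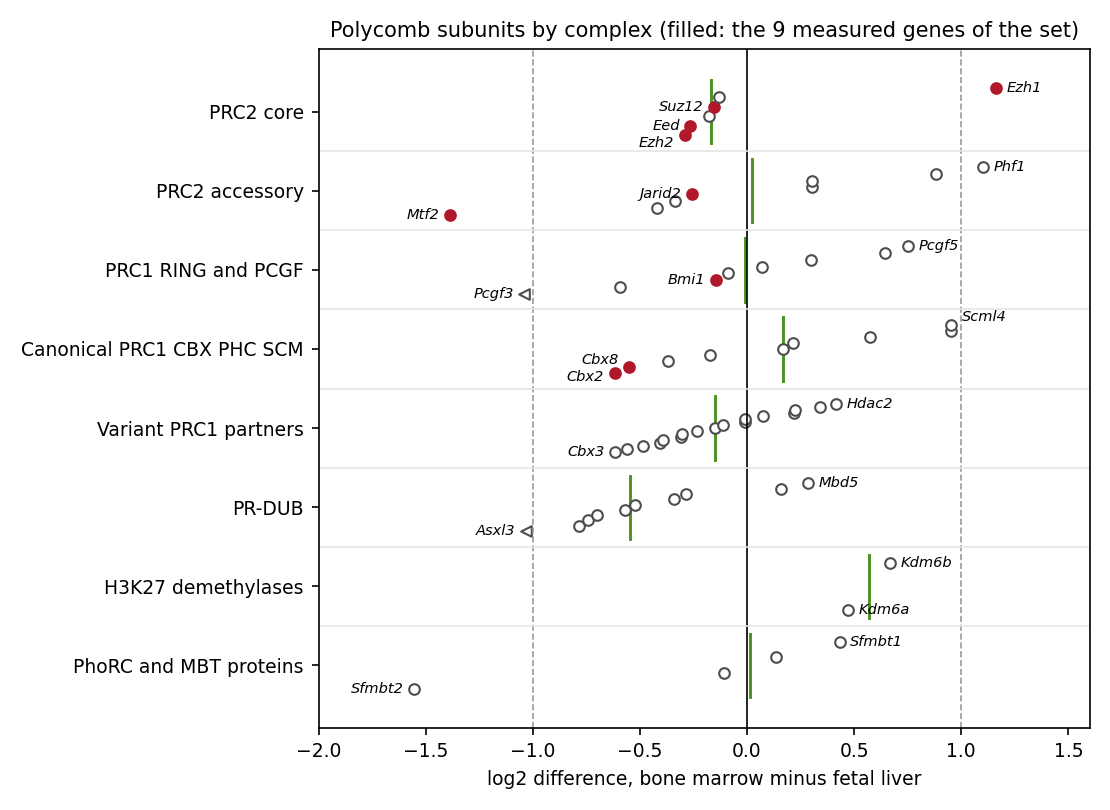
Log2 difference, bone marrow minus fetal liver, of the 64 measured Polycomb genes grouped by complex, with filled red symbols for the 9 measured genes of the set, open symbols for other subunits and left-pointing triangles for bounds. Green bars are group medians and dashed lines mark 2-fold, and the PR-DUB median of -0.55 is the lowest of the 8 groups.

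By complex, the median difference was -0.17 for the 6 core PRC2 genes, 0.024 for 8 measured PRC2 partners and -0.0087 for 8 ring finger and PCGF genes. It was 0.17 for 9 measured subunits of canonical PRC1 and -0.15 for 17 measured partners of variant PRC1. None of the 9 canonical or 17 variant PRC1 genes reached 2-fold. In the canonical group Scml4 had the largest difference, 0.95 ± 0.21, and in the variant group Cbx3, a heterochromatin protein, had the largest, -0.62 ± 0.20. Under spike-in scaling Scml4 was at 1.29, past 2-fold toward bone marrow.

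The PR-DUB group, the deubiquitinase complex that removes the PRC1 mark from histone H2A, had a median of -0.55 over 10 measured genes. Of these 8 were negative, beside 57.8% of all genes with a difference. The 2 positive ones were Mbd5 at 0.28 ± 0.21 and Mbd6 at 0.16 ± 0.20. The catalytic subunit Bap1 was at -0.57 ± 0.20. The scaffolds Asxl1 and Asxl2 were at -0.78 ± 0.20 and -0.70 ± 0.21, the other Asxl2 probe being at -0.063. Under spike-in scaling 7 of the 10 remained negative, with a median of -0.21 beside 0.23 for all genes. Both demethylases that erase the PRC2 mark were positive, Kdm6b at 0.67 ± 0.20 and the X-linked Kdm6a at 0.47 ± 0.21. Under spike-in scaling Kdm6b was at 1.00, past 2-fold. Bap1, Asxl1, Asxl2, Mbd5, Mbd6 and Kdm6a are outside the rule for naming genes and were added after their values were seen.

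Sex-linked genes, looked at after the other values were seen, differed between the arrays, and the labels used here give no sex. Xist had signals of 719 in bone marrow, against 132 in fetal liver, and Y-linked Ddx3y had 2.82 in bone marrow, not well above background, and 197 in fetal liver. The part of this in the value of Kdm6a and the other X-linked subunits was not tested.

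A list of 15 proliferation genes had a median of -0.36, with 13 of 15 negative, beside 57.8% of all genes with a difference. Of the 15 genes 3 passed 2-fold toward fetal liver, as did 6.76% of all measured genes. These 3 were the mitotic kinase Plk1 at -1.24 ± 0.20, cyclin B1 (Ccnb1) at -1.23 ± 0.20 and the checkpoint kinase Bub1 at -1.17 ± 0.07. The summed signal of the 15 genes was 146391 in bone marrow, against 124013 in fetal liver before scaling, and none was at 0. Under spike-in scaling 8 of 15 were negative, with a list median of -0.027 beside 0.23 for all measured genes. Of the 15, 0 then passed 2-fold, with Plk1 at -0.90, Ccnb1 at -0.89 and Bub1 at -0.84. Under normexp Bub1 was at -0.98. The part of proliferation in the Ezh1 and Mtf2 differences was not tested.

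Of 17 genes known as Polycomb-repressed in other settings, 6 were measured and 11 were at background on both arrays. Of all 20655 genes with a named probe, 13385 were measured. Among the 11 were Cdkn2a and Cdkn2b, cell cycle inhibitors at the locus that Bmi1 represses. The Cdkn2a probes had signals of 2.83 and 2.62 in bone marrow and 2.49 and 2.22 in fetal liver, at the level of the negative controls. Of the 6 measured genes 1, the endodermal and fetal stem cell factor Sox17, was at least 2-fold different. Of all measured genes 8.14% passed 2-fold toward bone marrow and 6.76% toward fetal liver. Its signal was higher in fetal liver by at least 4.60-fold, from signals of 2.90 in bone marrow, not well above background, and 42.6 in fetal liver. Its other probe gave at least 2.26-fold, and under normexp Sox17 was at -0.87, short of 2-fold. Hoxa9 was at -0.075 ± 0.21, and a second probe was at 0.24.

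Of the 6 genes of the Lin28 and let-7 axis, 5 passed 2-fold toward fetal liver, as did 6.76% of all measured genes. Lin28b did so by at least 168-fold with its bright probe and at least 8.74-fold with the other. The remaining ones were Igf2bp1 with at least 60.1-fold, Igf2bp3 with at least 43.5-fold, Igf2bp2 at 32.8-fold and Hmga2 at 17.98-fold. Under normexp all 5 stayed past 2-fold with smaller differences, Lin28b at -4.72, Igf2bp1 at -3.31, Igf2bp3 at -2.98, Igf2bp2 at -3.65 and Hmga2 at -3.72.

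Markers listed for the sorted population were present, with all 9 LSK markers measured on at least 1 array, Kit at -0.0052 ± 0.14 and Ly6a, the gene of Sca-1, 4.85-fold higher in bone marrow. Of 6 hepatocyte genes 4, Alb among them, were at background on both arrays, and the summed signal was 1566 in bone marrow, against 509 in fetal liver, nearly all of it Afp. Of 6 erythroid genes 5 were measured, with a summed signal of 17746 in bone marrow, against 102777 in fetal liver, of which the globin Hbb-bt gave 16971 in bone marrow, against 101150 in fetal liver. The neutrophil list, with a named probe for 4 of 5 genes, summed to 8490 in bone marrow, against 5162 in fetal liver before scaling. After scaling 3 of the 4 were positive and 1 negative, with a median of 0.70, and 2 passed 2-fold toward bone marrow. The highest, Ngp, was 12.7-fold higher in bone marrow, from signals of 224 and 13.2, with a log2 difference of 3.67 that was 1.64 under normexp. The lowest, at -0.078, gave 4910 of the sum in bone marrow and 3883 in fetal liver. Of 4 B cell genes 3 were at background on both arrays. Cd79b had 4030 in bone marrow, against 3974 in fetal liver, which is -0.40 ± 0.20 after scaling. Of 4 T cell genes 3 were measured, and Cd8a was at background on both arrays. The summed signal of the T cell list was 2061 in bone marrow, against 1992 in fetal liver. After scaling Cd3e was at -0.52 ± 0.20, Cd4 at -0.24 ± 0.20 and Cd3g at a bound of -0.81. Of the macrophage genes 2 of 3 with a probe were measured, with a summed signal of 4967 in bone marrow, against 4553 in fetal liver. After scaling Csf1r was at -0.30 ± 0.20 and Adgre1 at -0.067 ± 0.30. Under spike-in scaling Cd4, Csf1r and Adgre1 turned positive, at 0.10, 0.040 and 0.27, while Cd79b, Cd3e and Cd3g stayed negative. Of 5 endothelial and stromal genes 4 were measured, 2 positive and 2 negative. The summed signal was 7653 in bone marrow, against 8570 in fetal liver, of which Kdr gave 7344 and 8401. After scaling Kdr was at -0.61 ± 0.20 (-1.21 by its other probe). Pecam1 was at 0.84 ± 0.16 (0.29 under normexp) and Col1a2 at 0.84 ± 0.21. Cdh5 was higher in fetal liver by at least 4.54-fold (-0.84 under normexp). The part of these other cells in the Polycomb values was not tested.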

How the data were processed

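Gene expression was measured in 2 samples, LSK cells of bone marrow and of fetal liver, with 1 single-colour Agilent array each from 20 ng of total RNA, per the labels' protocols. The deposited spot intensity values come from Agilent Feature Extraction 10.7.1.1, per the file headers, with background subtracted within each array and no scaling between arrays. The deposited flags and spot errors are from the same software. The authors' deposited value table is a linear ratio. It equalled the processed signal divided by 178.6 (bone marrow) or 133.9 (fetal liver) within 0.1% for 99.99% of single-spot probes, is neither logged nor centred, and how the constants were set is not stated in the labels or headers. Its column medians were 0.0589 and 0.0604.

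Outlier spots (137 in bone marrow, 122 in fetal liver) were left out, no spot was saturated, and repeated spots were averaged. Signals were divided by the array's 75th percentile (178.9 and 134.0) and logged. Of the probes, 47.4% of bone marrow and 46.4% of fetal liver were well above background. Symbols came from the RefSeq table (GRCm38.p6) through each probe's accession, for 27226 of 55664 probes. The array design uses mm9, so no probe coordinates are given, and the only coordinates printed are the promoter windows on GRCm38.p6. A gene takes its probe with the highest mean signal and is measured when at least 1 array has that probe well above background. Where 1 side is not, that side is set to the higher of its own signal and the lowest signal well above background (12.4 in bone marrow, 9.82 in fetal liver), and the fold is written as at least. Of 13385 measured genes, 12 had no usable bound.

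Single spots of 247 probes printed 10 times had an SD of 0.15 in their log2 difference, and the software's error had a median of 0.21. These are technical spreads, and the number of arrays limits the precision. With 1 array per group no test was run. Slide cannot be told apart from group, since each array is on a slide of its own. The code was tested on simulated signals with known changes. R 4.3.3, limma 3.58.1 (normexp) and Python 3.11.15 were used. The files hold no mean spot signal, so normexp was run on the median spot signal.

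Genes were named by rule: the 10 members with every probe, other listed genes at least 2-fold different, the gene with the largest difference in each list, and close relatives of members. Some genes that the rule or the marker lists hold are not reported here. The members and lists were chosen with earlier results of these data known.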

Additional observations from a re-analysis of the deposited data

How the results depend on the processing

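No paired analysis was possible because each group has 1 array. The 10 alternatives changed background correction, scaling, probe choice, the filter or the source of values. Ezh1, Mtf2, Cbx2 and Cbx8 kept their sign under all 10, as did 41 of the 62 measured Polycomb genes with a value under each. Not every alternative could move every gene. Members with 1 measured probe, Mtf2, Cbx2 and Cbx8 among them, were above background on both arrays. The probe and filter settings therefore return the same value for them. The authors' value table has nearly the same constants as the main scaling, so for these members only the other background and scaling settings are a check. Pcgf3 and Asxl3 had 9 alternatives, having no value where both arrays must be above background, and kept their sign. Of the 9 measured members 8 stayed on their side of 2-fold under all 10. The exception was Ezh1, past 2-fold under 8 of the 10: with the mean over probes 0 members passed 2-fold toward bone marrow (Ezh1 at 0.98), and with the dimmest measured probe 0 (Ezh1 at 0.66), since both settings bring in its dim probe. The count higher in fetal liver was 1 throughout. Spike-in scaling moved the members' median to 0.071. Genes past 2-fold among all measured numbered 1090 in bone marrow and 905 in fetal liver, against 606 and 379 under normexp, 1756 and 510 under spike-in scaling, and 1654 and 1693 without the filter on dim probes, which tests 20655 genes. The cause of the normexp change was not tested. Dim signals limit Cbx7, the second probe of Mtf2 and the bounds of Pcgf3 and Asxl3, which were at -0.35 and -0.51 under normexp.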
